A study of Mus musculus with 2 samples.

Results

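The clustered protocadherin genes of mouse chromosome 18 were examined for H3K27me3, histone H3 carrying 3 methyl groups on lysine 27, which is written by Polycomb repressive complex 2. Members were all protein-coding genes of the mm10 annotation on that chromosome whose symbol begins with Pcdha, Pcdhb or Pcdhg followed by a letter a to c or a digit. This gave 57 genes out of 21755 coding genes on the autosomes and the X chromosome, namely 14 in the alpha cluster, 22 in the beta cluster and 21 in the gamma cluster. The annotation gives the symbol Pcdha11 to 2 of these genes, ENSMUSG00000007440 and ENSMUSG00000102206, called copy 1 and copy 2 here by their order on the chromosome. The pseudogene Pcdhgb8, which lies in the gamma cluster, is not a member.

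Chromatin immunoprecipitation with an antibody against H3K27me3 was followed by sequencing in E14TG2a.4, a male embryonic stem cell line of mouse strain 129/Ola to which the labels give an age of 3.5 days in the embryonic stage. The samples were biological replicates 1 and 2 of 1 untreated group, and both came from 1 donor's line. No second condition exists, so no difference between conditions could be tested, and every value below describes these libraries. The peak list of replicate 1 held 63651 peaks over 53.6 Mb and that of replicate 2 held 98582 peaks over 58.4 Mb. The read depth behind either list is unknown, and an absent peak can reflect too few reads. The promoters of the stem cell genes Pou5f1, Nanog, Sox2, Zfp42 and Klf4 had no peak in either replicate, and those of the lineage regulators Hoxd13, Pax6, Gata6 and T were marked at 4 of 4. Of the neuronal genes 3 of 4 were marked, with Map2 the exception, and of the fibroblast genes 3 of 3.

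Clustered protocadherins are adhesion molecules of the cell surface that neurons use to tell self from other. Each neuron expresses its own small combination of isoforms, because each variable exon has its own promoter and the promoters are chosen largely at random. A single large variable exon encodes the extracellular cadherin repeats, the membrane span and the first part of the cytoplasmic tail. Alpha and gamma variable exons are spliced to 3 constant exons shared by their cluster, whereas a beta gene consists of its variable exon alone. The C-type isoforms at the ends of the alpha and gamma clusters are expressed more uniformly across neurons. Binding of CTCF and cohesin joins a distant enhancer to the chosen promoter, and DNA methylation keeps other promoters silent.

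All members lie on the forward strand of GRCm38 (mm10). The alpha variable exons lie at chr18:36930184-37146530, the beta genes at chr18:37264938-37524479 and the gamma variable exons at chr18:37661793-37822134. Gaps of 118 kb and 137 kb separate the clusters. The alpha constant exons lie at chr18:37156155-37187657 and the gamma constant exons at chr18:37825021-37841873.

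A promoter was counted as marked when the stretch from 1 kb before to 1 kb after the annotated 5′ end, 2001 bp in all, overlapped by at least 1 bp a peak in each replicate's own list. By this rule 53 of 57 members were marked (93.0%), against 5679 of 21755 coding genes (26.1%). The count was 11 of 14 for alpha, 21 of 22 for beta and 21 of 21 for gamma, and each replicate taken alone gave the same 3 counts, where the share of all coding genes was 27.8% in replicate 1 and 30.2% in replicate 2. A stricter rule, at least 50% of the window covered in each replicate, was met by 25 members (43.9%), against 14% of all coding genes. These were 5 alpha, 9 beta and 11 gamma genes. The pseudogene Pcdhgb8 was also marked, where peaks covered 1134 bp and 1053 bp of the window.

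The count of marked members changed little with the window or the peak list. A window of 0.5 kb on each side gave 50 members, against 21.4% of coding genes, and lost Pcdha1, Pcdhga12 and Pcdhgc5. A window of 2.5 kb gave 55, against 30.7%, and added Pcdha7 and Pcdhb9. The relaxed list of each replicate gave 54, against 33.3%, and the replicated list of the same run gave 54, against 34.2%, both by adding Pcdhb9. The replicated list of the second run gave 53, against 33.2%, and the list of both libraries together 53, also against 33.2%. A peak at any annotated transcript start was found for 53 members, against 29.6%. Pcdha6 and Pcdha8 had no peak in the 1 kb window in any of these lists.

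**Figure D1:**
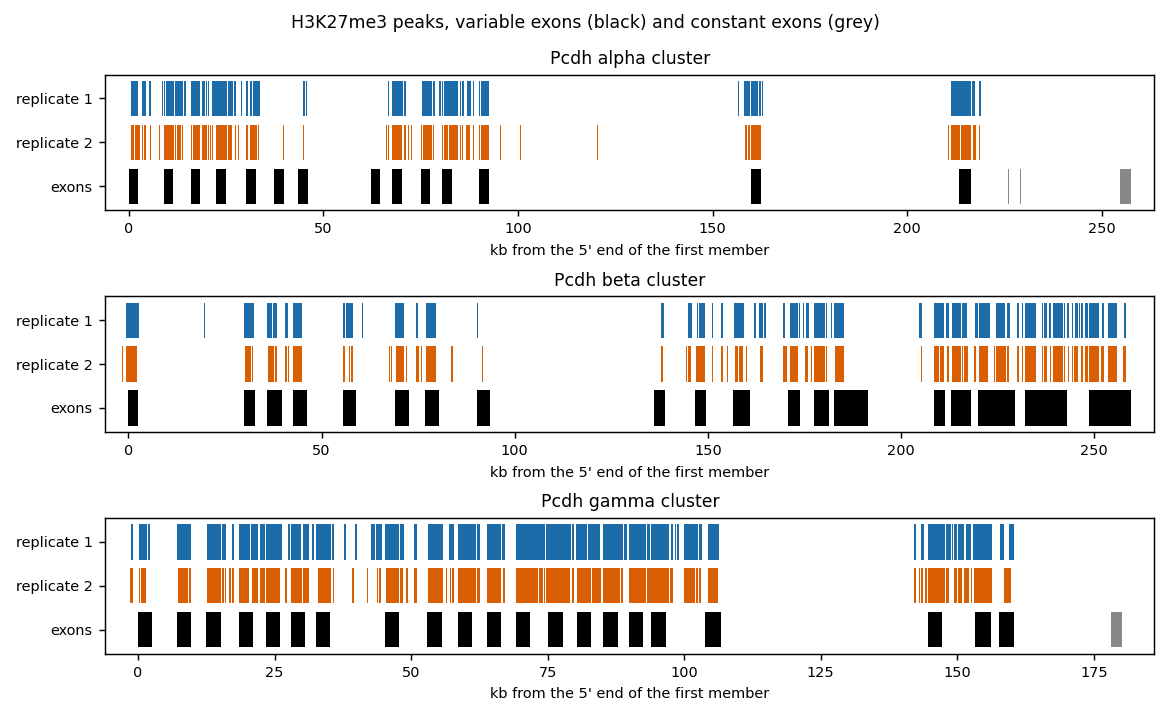
Map of the 3 clusters, with distance along the cluster in kb on the x axis, the variable and constant exons as boxes, and the peaks of replicate 1 and replicate 2 as separate tracks. Peaks stand over nearly all variable exons, the gamma cluster is the most densely covered, and no peak lies over the constant exons.

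The mark lay on the variable exons and left the constant exons bare. No base between the first and the last constant exon was covered in either replicate, in the alpha or in the gamma cluster. The 3 alpha constant exons measure 59, 89 and 2712 bp and the 3 gamma constant exons 59, 89 and 1971 bp. The last variable and the first constant exon are 9.62 kb apart in the alpha cluster and 2.89 kb apart in the gamma cluster. In the alpha cluster the last peaks before the constant exons lay in this gap, just past the exon of Pcdhac2. In the gamma cluster they ended inside the exon of Pcdhgc5.

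Within the variable part, the gamma cluster was the most covered. From the first member's 5′ end to the end of the last variable exon, 51.4% of the gamma bases were covered in replicate 1 and 47.7% in replicate 2. The beta span was covered over 26.6% and 25.7%, and the alpha span over 21.3% and 20.4%. The gamma cluster is also the most compact, with 160 kb against 260 kb for beta and 216 kb for alpha. Its variable exons make up 34.3% of the span, against 35.5% in beta and 16.3% in alpha. Beta and gamma thus differed in coverage while having nearly the same share of exon bases. These bases are not alike, because beta exons include 3′ untranslated parts and the gamma variable exons do not. The share of coding bases in each span was not compared.

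Bases outside the variable exons were covered to different degrees in the 3 clusters. In both replicates together, 86.8% of gamma exon bases and 22.4% of the bases between gamma exons lay in peaks. For alpha these shares were 69.5% and 8.46%, and for beta 55.3% and 5.29%. Hence 85.2% of the covered bases of the beta cluster lay in its exons, against 66.9% in gamma and 61.5% in alpha. When common peaks closer than 3 kb were joined, the longest stretch in the gamma cluster ran over 62.6 kb and held the 5′ ends of 11 members, from Pcdhga6 to Pcdhga12. In the beta cluster it ran over 49.5 kb, began just after the 5′ end of Pcdhb15 and held those of 7 members, Pcdhb16 to Pcdhb22. In the alpha cluster it ran over 33.0 kb, began inside the exon of Pcdha1 and held the 5′ ends of 4, Pcdha2 to Pcdha5.

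Around the 5′ end, peaks began just downstream and the bases just upstream were mostly free. At 0.1 kb before the 5′ end, 3 of 14 alpha promoters were covered in replicate 1 and 1 of 14 in replicate 2. For beta this was 3 and 0 of 22, and for gamma 1 and 2 of 21. At 1.0 kb after the 5′ end, 11 of 14 alpha promoters were covered in each replicate, 20 and 19 of 22 beta promoters, and 19 and 21 of 21 gamma promoters. The same positions in the 5626 other marked promoters of the genome were covered at 45.7% and 43.4% before the 5′ end, and at 74.0% and 71.1% after it. Just before the 5′ end, the other marked promoters were thus covered more often than members of any cluster in either replicate. The cluster counts include the unmarked members, whereas the comparison holds marked promoters only.

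**Figure D2:**
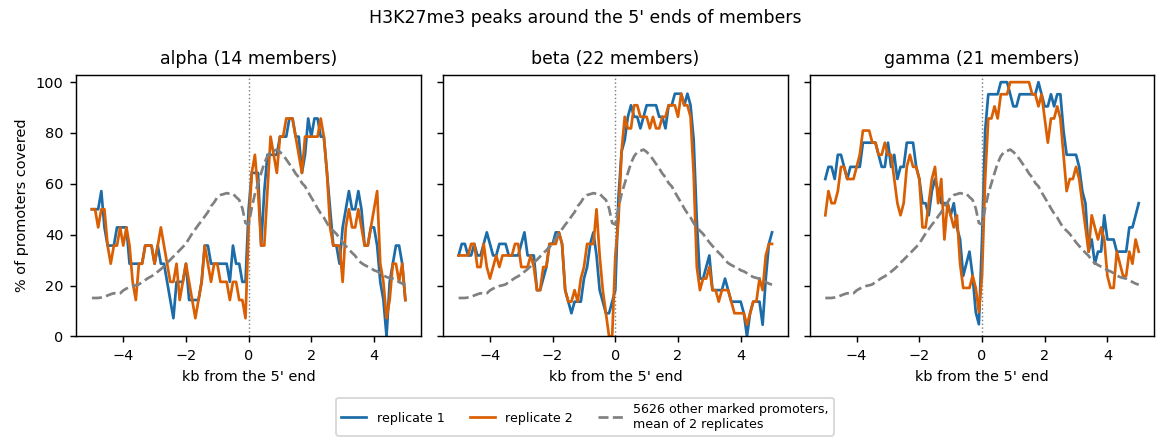
Percent of promoters covered by a peak (y axis) at each distance from the 5′ end in kb (x axis, step 100 bp), for replicate 1 and replicate 2 in each cluster, with the mean of both replicates over 5626 other marked coding promoters dashed. All 3 clusters fall to at most 21.4% at 0.1 kb before the 5′ end, where the other marked promoters show a shallower dip to 45.7% and 43.4%, and then rise to a plateau of about the length of the coding part. Each cluster includes its unmarked members.

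The asymmetry held gene by gene. In the 1 kb before the 5′ end, median coverage over the members was 149 bp for replicate 1 and 162 bp for replicate 2. In the 1 kb after it, the medians were 948 bp and 872 bp. More bases were covered after than before the 5′ end in both replicates for 49 of 57 members, namely 9 of 14 alpha, 19 of 22 beta and 21 of 21 gamma genes. No upstream base was covered in either replicate for 17 members, the 4 unmarked ones included. The strongest peak at each of the 53 marked windows had its summit inside the variable exon in both replicates, at a median of 1205 bp and 1311 bp from the 5′ end. Sequence repeated elsewhere in the genome was rare just upstream: the share of 36-base words in the 250 bp before the 5′ end that occur once in the genome was 100% for all alpha and beta members and at least 93.5% for gamma members.

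The alpha profile differed from the other clusters in a dip inside the exon. At 0.4 kb after the 5′ end 5 of 14 alpha promoters were covered in each replicate, against 19 and 18 of 22 for beta and 20 and 19 of 21 for gamma. With each exon divided into 10 equal pieces, the second piece of alpha exons was covered at a mean of 51.2% and 46.1%, below the first piece at 62.0% and 65.7%. The fifth piece reached 79.0% and 81.8%. Coverage then stayed between 68.1% and 85.7% to the exon's end. The alpha values include the unmarked Pcdha6, Pcdha7 and Pcdha8. Whether repeated sequence inside alpha exons goes with the dip was not tested.

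Coverage of whole variable exons separated the clusters more clearly than the promoter count did. The median gamma exon was covered over 98.7% in replicate 1 and 96.5% in replicate 2. The median alpha exon was covered over 89.6% and 86.8%, and the median beta exon over 63.7% and 63.98%. Beta exons are longer, with a median of 3714 bp against 2490 bp for alpha and 2607 bp for gamma, because each contains its gene's 3′ untranslated region. Over the coding part alone, whose median is 2388 bp in beta, the beta medians were 97.1% and 94.4%. Those of alpha were 90.4% and 88.7%, and those of gamma 100% and 100%.

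The untranslated 3′ parts of beta exons were mostly outside peaks. In the 21 beta genes with more than 100 bp after the stop codon, this stretch had a median of 1251 bp, and a median of 7.17% of it was covered in replicate 1 and 16.4% in replicate 2. Pcdhb14 has the longest exon, 8695 bp. Its coding part was covered over 95.2% and 91.5%, and none of the 6120 bp after the coding part was covered in either replicate. Pcdhb16 had the most covered in replicate 2, with 48.8% and 53.9% of 2644 bp. Pcdhb12 had the most in replicate 1 and little in replicate 2, with 61.2% and 5.98% of 485 bp. The last of the 10 pieces of beta exons was covered at a mean of 10.9% and 3.81%, against 89.2% and 81.9% in gamma and 78.4% and 83.3% in alpha.

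**Figure D3:**
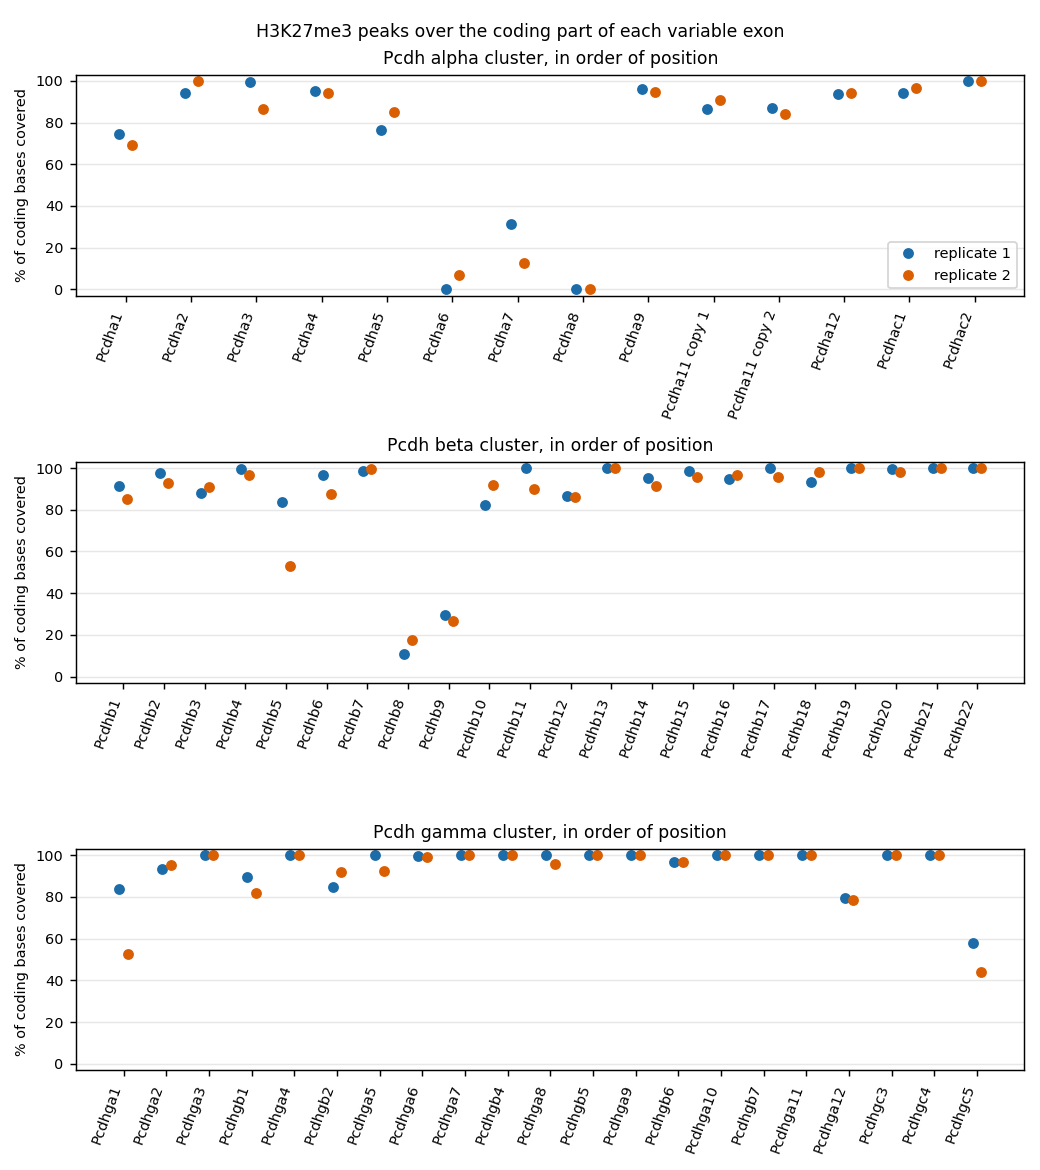
Percent of the coding part of each member's variable exon covered by peaks (y axis), by order along each cluster (x axis), with points for replicate 1 and replicate 2. Most members sit near 100%, and Pcdha6, Pcdha7, Pcdha8, Pcdhb8 and Pcdhb9 lie below 32%.

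Counted gene by gene, at least 50% of the coding part was covered in common by both replicates in 51 of 57 members, and at least 90% in 34. The 6 members below 50% were Pcdha6, Pcdha7 and Pcdha8, Pcdhb8 and Pcdhb9, and Pcdhgc5. Such coverage was less common among long start-codon exons of other genes, most of which lacked a peak in at least 1 replicate. Of 1032 start-codon exons of at least 2 kb in other coding genes, 366 (35.5%) held a peak in both replicates and 204 (19.8%) were covered over at least 50% in common. Among members the same counts over the whole exon were 55 (96.5%) and 47 (82.5%). Of the exons with a peak in both replicates, 204 of 366 in other genes and 47 of 55 in members thus reached 50%.

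Single peaks were wide. The widest peak at each window had medians of 2694 bp (replicate 1) and 2472 bp (replicate 2) for gamma, 2426 bp and 2166 bp for beta, and 1843 bp and 1714 bp for alpha, with unmarked members counted as 0 bp. The median of all peaks was 547 bp in the first list and 373 bp in the second. Those medians count every peak and not the widest per window, and no value for other marked promoters is given here. Pcdhga9 had the widest in replicate 1, 4154 bp, and one of 3899 bp in replicate 2. Pcdhgb5 had peaks of 4008 bp and 3927 bp. Both are longer than these genes' variable exons, so the peaks ran on past the exon. The narrowest were those of Pcdhb8, with 257 bp and 162 bp.

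The deposited signal value of a peak, the authors' own measure, ranked member peaks high within each list. The strongest peak at the 53 marked windows stood at a median percentile of 95.9 in replicate 1 and 96.9 in replicate 2. This sets the highest of up to 3 peaks per window against every peak of the list. Other marked promoters were not ranked beside it. Pcdhga10 had signal values of 12.9 and 15.6, Pcdha4 of 14.5 and 13.9, and Pcdhgb4 of 12.4 and 14.6. Low values in both replicates were those of Pcdhgc5 with 5.11 and 2.86, Pcdhb8 with 5.21 and 4.05, and Pcdhb5 with 4.66 and 5.49. Pcdhga2 was the lowest in replicate 1, with 4.39, and had 7.29 in replicate 2. Medians were 12.1 and 11.9 for the 11 marked alpha genes, 8.77 and 8.68 for beta and 11.2 and 11.6 for gamma. Marked beta genes thus had the lowest median signal, although the alpha genes had the narrowest median peak. The signal medians leave out unmarked members, whereas the width medians count them as 0 bp. The order of the widths depends on joining: with peaks within 1 kb joined, the median width was 4652 bp in alpha, 3602 bp in beta and 9374 bp in gamma.

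**Figure D4:**
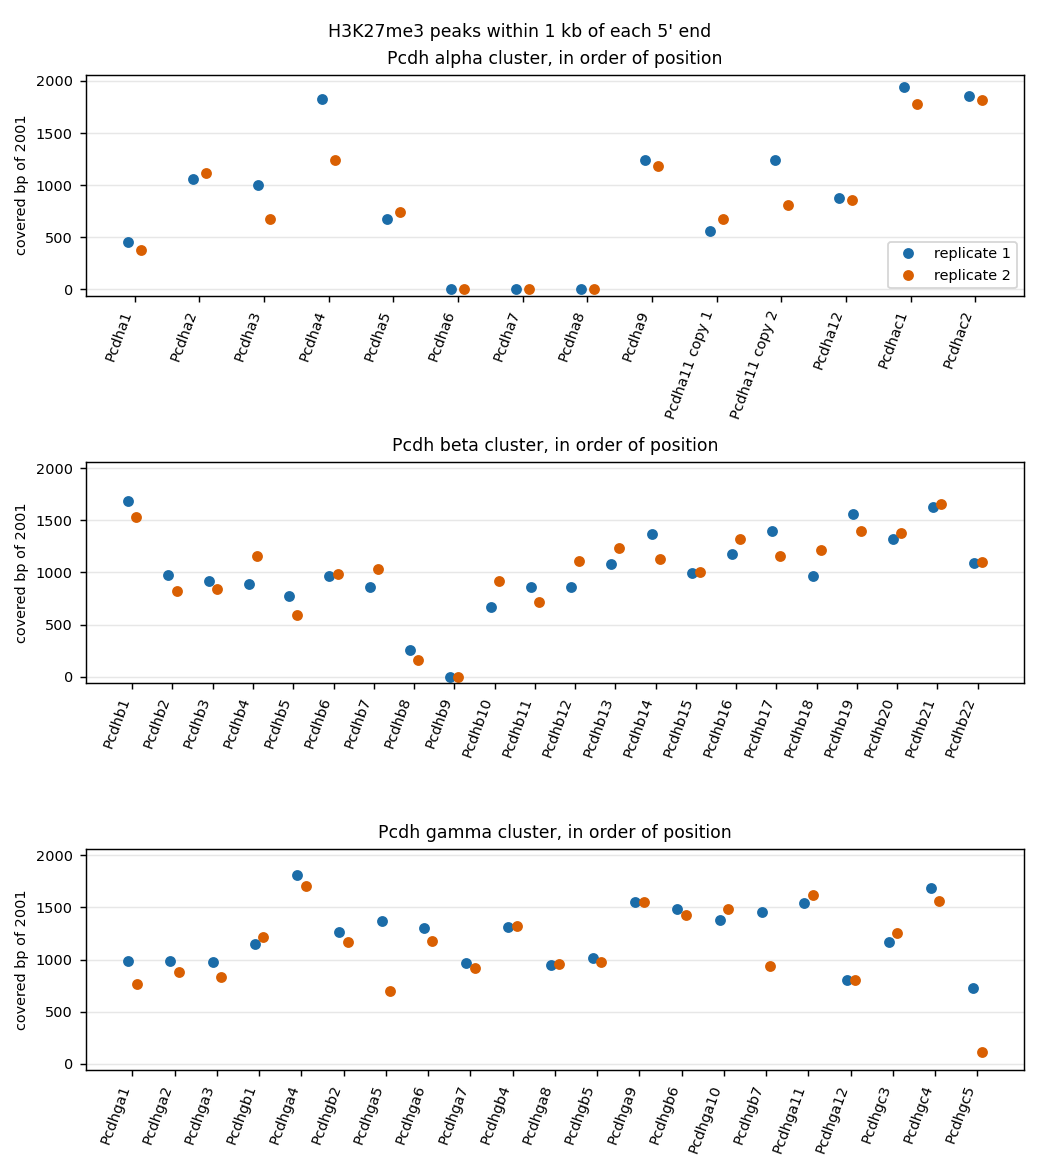
Bases of each member's promoter window covered by peaks (y axis, bp of 2001), by order along each cluster (x axis), with points for replicate 1 and replicate 2. The adjacent Pcdha6, Pcdha7 and Pcdha8, together with Pcdhb9, are at 0 in both replicates, and Pcdhac1 is the highest.

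In the alpha cluster, the uncovered promoters were 3 neighbours. Pcdha6, with its 5′ end at position 36967631, had its nearest peak 3816 bp away in replicate 1 and 2271 bp in replicate 2, and 0% and 6.97% of its coding part was covered. Pcdha7, at 36973802, had its nearest peaks 1225 bp and 1127 bp away, with 31.4% and 12.8% of its coding part covered. Pcdha8, at 36992371, had its nearest peaks 4497 bp and 3960 bp away and no covered exon base in either replicate. The genes on either side of this run were marked. Pcdha5 had 671 bp and 742 bp of its window covered, below the cluster's medians of 937 bp and 774.5 bp, and Pcdha9 had 1238 bp and 1184 bp, above them.

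Among the other alpha genes, the most covered windows were at the cluster's end. Pcdhac1 had 1942 bp and 1779 bp covered, and Pcdhac2, the last member, 1855 bp and 1814 bp. Pcdha4 followed with 1822 bp and 1238 bp. Both C-type exons were covered nearly whole, with 94.5% and 96.6% in Pcdhac1 and 100% and 96.3% in Pcdhac2. Pcdha1, the first member, was the lowest of the marked alpha genes at 453 bp and 375 bp. Its peaks lay over the exon, where 74.4% and 69.3% was covered.

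In the beta cluster, coverage dropped at Pcdhb8 and Pcdhb9. Pcdhb9, with its 5′ end at 37400855, had no peak in its window, and its nearest peaks were 1845 bp and 1873 bp away. These lay further down its exon, so that 29.6% and 26.9% of its coding part was covered. Pcdhb8, its neighbour, had 257 bp and 162 bp of its window covered and 11.0% and 17.4% of its coding part. The genes on either side, Pcdhb7 and Pcdhb10, had 98.8% and 99.4%, and 82.1% and 91.8%, of their coding parts covered.

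The beta genes with the most covered windows were Pcdhb1 at the start of the cluster and Pcdhb19, Pcdhb20 and Pcdhb21 near its end. Pcdhb21 had 1625 bp and 1652 bp covered, Pcdhb1 1689 bp and 1528 bp, Pcdhb19 1561 bp and 1396 bp, and Pcdhb20 1318 bp and 1379 bp. After Pcdhb8 and Pcdhb9, the lowest were Pcdhb10 with 669 bp and 916 bp and Pcdhb5 with 769 bp and 593 bp. Pcdhb5 was also where the replicates differed most in the coding part of a beta gene, 83.6% against 52.9%. Pcdhb22, the last member, had 1088 bp and 1102 bp of its window covered and the whole of its coding part in both replicates. Its exon overlaps the end of that of Pcdhb21, so the bases they share count for both.

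In the gamma cluster every window was marked, and the first and last members were among the 4 least covered. Pcdhga4 had the most, 1814 bp and 1707 bp, followed by Pcdhga9 with 1557 bp and 1556 bp, Pcdhga11 with 1546 bp and 1618 bp, and Pcdhgb6 with 1490 bp and 1431 bp. Pcdhga1, the first member, had 989 bp and 770 bp, with 84.0% and 52.5% of its coding part covered. Pcdhga12 had 808 bp and 804 bp, and Pcdhga5 had 1371 bp and 699 bp, so that the latter was low in replicate 2 alone.

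Pcdhgc5, the last gamma gene, was the exception among the C types. Its window was covered over 725 bp in the first replicate and 110 bp in the second, and the peaks of the replicates shared no base there. Of its coding part 58.0% and 43.9% was covered, with 10.2% in common. Its count as marked therefore rests on peaks at different places in each replicate. Its neighbours Pcdhgc3 and Pcdhgc4 had 1165 bp and 1253 bp, and 1686 bp and 1565 bp, with the whole coding part covered in both replicates.

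By isoform class, the 5 C-type genes had the highest median window coverage, 1686 bp and 1565 bp. Gamma B genes followed at 1291 bp and 1194 bp, then gamma A at 1145 bp and 938 bp. Beta genes had medians of 969 bp and 1104 bp, and the 12 alternate alpha genes 773 bp and 708 bp. Gamma A and beta genes changed places between the replicates. In bases covered by both replicates, the C types held both the most covered window, that of Pcdhac1, and the least covered among marked members, that of Pcdhgc5.

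Position along the cluster went with window coverage most in beta. Spearman's rank correlation between a member's order and the bases covered in both replicates was 0.53 over 22 beta genes, 0.38 over 14 alpha genes and 0.15 over 21 gamma genes. For the share of the whole exon covered, the rank correlation was -0.06, 0.38 and 0.34 in the same order. In beta this share includes the 3′ untranslated part, which was mostly outside peaks. These are descriptions of neighbouring genes measured in the same libraries. In beta, at most 94.05% of 36-base window words occurred once in the genome from Pcdhb4 to Pcdhb12. From Pcdhb13 to Pcdhb22 it was at least 96.08%, and from Pcdhb1 to Pcdhb3 100%. Whether position or uniqueness goes with coverage there was not tested. The replicates ranked members alike, with a rank correlation of 0.84 for window coverage and 0.94 for exon coverage over the 57 genes.

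Repeated sequence differed between members and moved with coverage in 2 clusters. Variable exons resemble each other, so reads from them can match more than 1 place, and how such reads were treated is not known here. The share of 36-base words of the window found once in the genome had medians of 89.6% in alpha, 100% in beta and 98.8% in gamma. It was lowest at Pcdha7 with 75.6%, Pcdha6 with 78.6%, Pcdha8 with 80.7% and Pcdhb9 with 80.7%, the 4 unmarked members. The rank correlation between this share and the bases covered in both replicates was 0.82 in alpha, 0.74 in beta and -0.06 in gamma. Over whole exons the share was 66.8% for Pcdha7, 68.5% for Pcdha6 and 73.6% for Pcdha8, the lowest of all members, and 85.6% for Pcdhb9. The rank correlation with whole-exon coverage was 0.89 in alpha, 0.41 in beta, 3′ untranslated parts included, and -0.01 in gamma.

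Low uniqueness did not always come with low coverage, nor high uniqueness with high coverage. The window of Pcdhgc5, at 99.5% unique, was among the least covered. Pcdhgb4 had a window share of 83.2% and its window was covered over 1315 bp and 1327 bp. Among beta genes, the cluster's median windows were covered over 969.5 bp and 1104.5 bp. Pcdhb11, with a share of 82.9%, lay below both medians at 862 bp and 717 bp. Pcdhb12, with 83.2%, lay below the first at 863 bp and close to the second at 1107 bp. The shares of Pcdhgb4, Pcdhb11 and Pcdhb12 were all above those of the unmarked members, the highest of which was 80.7%. Within alpha exons, bases that begin a word found once were covered over 79.2% and 77.6%, and bases that begin a repeated word over 47.3% and 47.2%. Gamma exons had the same order, with 94.0% and 89.8% against 81.1% and 81.3%. In beta exons the order was the opposite, 58.5% and 57.6% against 75.2% and 71.2%. The beta bases include the 3′ untranslated parts, which were mostly outside peaks, and the coding parts were not counted separately. The part of repeated sequence in the missing peaks of Pcdha6, Pcdha7, Pcdha8 and Pcdhb9 was not tested.

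**Figure D5:**
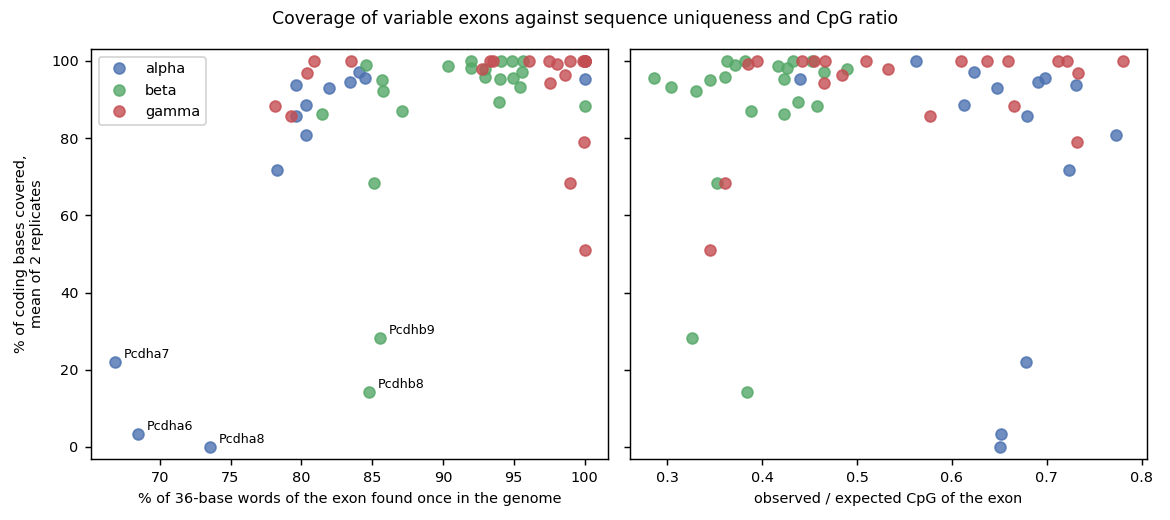
Percent of the coding part of each variable exon covered by peaks (y axis, mean of 2 replicates) against the percent of 36-base words of the exon found once in the genome (left) and the observed over expected CpG ratio of the exon (right), with 1 point per member coloured by cluster. Pcdha6, Pcdha7 and Pcdha8 have the 3 least unique exons and lie below 32% covered, and members with low coverage are found at both low and high CpG ratios.

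The density of CpG sites, which Polycomb-marked promoters of stem cells are known for, set the clusters apart in another order. The ratio of observed to expected CpG within 500 bp of the 5′ end had a median of 0.682 in alpha, 0.594 in gamma and 0.378 in beta, and 0.558 over all coding promoters. The beta genes were thus marked at 21 of 22 with a ratio below that of the typical promoter. When the coding genes were divided into 10 classes by this ratio, the classes the members belong to had 34.9% marked on average, weighted by members, against 93.0% of the members. The unmarked Pcdha6, Pcdha7 and Pcdha8 had ratios of 0.749, 0.734 and 0.723, among the highest of the alpha cluster, and Pcdhb9 had 0.158, the lowest of all members. The rank correlation between the ratio and covered window bases was -0.63 in alpha, -0.17 in beta and 0.23 in gamma. Between the exon's own CpG ratio and the share of the exon covered it was -0.16, 0.40 and 0.25, and 0.46 over all 57 members, which also differ by cluster in both measures. For beta genes both measures include the 3′ untranslated parts.

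Most protocadherin promoters carry a conserved element near the 5′ end with the core letters CGCT. These letters were found on the gene's strand between 250 bp before and 50 bp after the 5′ end in 50 of 57 members (87.7%), against 51.4% of all coding promoters. On either strand they were found in 55 members (96.5%), against 67.5%. The members without them on the gene's strand were Pcdha11 copy 1, Pcdhac2, Pcdhb13, Pcdhb17, Pcdhb22, Pcdhga12 and Pcdhgc5. All of these were marked, and the 4 unmarked members all had the letters. A run of 4 letters occurs often by chance, and a match is not a binding site.

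The few genes next to the clusters differed by side, which was not tested. Of 15 coding genes beside, between or inside the clusters, 6 were marked (40%), against 26.1% of all coding genes. The 5 coding genes before the alpha cluster, Wdr55, Dnd1, Hars2, Hars and Zmat2, had no peak at their promoters in either replicate. Between the beta and gamma clusters, Slc25a2, which encodes a mitochondrial carrier, and Taf7, which encodes a subunit of the general transcription factor TFIID, had none either. After the gamma cluster Diaph1 had none, and the next 4 genes were marked, Hdac3 with 795 bp and 871 bp, Rell2 with 858 bp and 934 bp, Fchsd1 with 682 bp and 457 bp, and Arap3 with 1500 bp and 1069 bp. The 5′ ends of Hdac3 and Rell2 lie beside each other, so their windows share peaks. The predicted genes Gm42416, Gm37013 and Gm37388 start inside the exons of Pcdha4, Pcdha6 and Pcdha7. Peaks over the exons of these members are thus counted again for the predicted genes. Gm42416 had 1822 bp and 1238 bp covered, Gm37388 739 bp and 290 bp, and Gm37013 0 bp and 166 bp.

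Genes that work with the protocadherins were marked about as often as coding genes in general (26.1%). Of 14 regulators of promoter choice, 3 were marked (21.4%). These were the DNA methyltransferases Dnmt3a with 1359 bp and 1384 bp and Dnmt3b with 1037 bp and 921 bp, and Smchd1, a chromatin protein that silences clustered genes, with 789 bp and 541 bp. Ctcf and the cohesin genes Rad21, Smc1a, Smc3, Stag1 and Stag2 had no peak. Of 12 cytoplasmic partners, 3 were marked (25%), namely the receptor kinase Ret with 2001 bp and 1677 bp, and the kinases Fyn with 1312 bp and 648 bp and Ptk2b with 930 bp and 1037 bp. Cyfip2, of the WAVE complex, had 260 bp in replicate 1 and none in replicate 2.

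Protocadherin genes outside the clusters, each with its own locus, were marked at 12 of 12, and 10 of these had at least 50% of the window covered in both replicates. Their median window coverage was 1555 bp and 1681 bp, against 1012 bp and 1036 bp for the clustered genes. Hox genes, the textbook Polycomb targets, were marked at 39 of 39 with medians of 2001 bp and 1924 bp. Clustered members thus had the smaller median coverage in both replicates. None of these differences was tested, because the genes were measured in the same libraries and neighbours share peaks.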

How the data were processed

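Per the file headers, the authors deposited mm10 peak lists from 2 processing runs. Besides the lists per replicate, relaxed in the first run and pseudoreplicated in the second, each run has a list of the combined libraries and a replicated list. The aligner, peak caller, thresholds, use of a control and handling of reads with several matches were not stated. The deposited signal value of each peak has no stated scaling and served to rank peaks within a list, and the deposited −log10 q served as a filter in 1 alternative. A list on build mm9 was not used. Depth per library is unknown.

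A marked promoter needed a peak in the pseudoreplicated lists of both replicates, which were made from each replicate alone. Genes came from GENCODE mouse release 21. The variable exon is the exon with the start codon in the principal transcript. The CpG ratio covers 500 bp on each side of the 5′ end. Uniqueness is the share of 36-base words found once in GRCm38 on either strand. Interval counts were tested on simulated peaks. The word code was checked only for treating a stretch of the genome and its reverse complement alike. With 1 group of 2 replicates no test between conditions exists. The labels call the samples biological replicates without saying whether they were separate cultures.

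Members and gene lists were chosen with earlier results of these data known. Named genes were every unmarked member, the 4 members with the most and the 4 with the fewest window bases covered in both replicates per cluster, the C types, first and last members, coding genes between or within 5 genes of the clusters, and marked regulators and partners. Members named beside neighbours, for signal, width or exceptions were chosen after their values were seen. Alternatives were windows of 0.5 kb and 2.5 kb, 50% coverage, other centres, a −log10 q of at least 2, the other lists, each replicate alone, and peaks joined within 1 kb. Scripts ran under Python 3.11.15 with Numba 0.67.0, pandas 2.3.3, NumPy 2.4.6, Matplotlib 3.10.9 and SciPy 1.17.1.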

Additional observations from a re-analysis of the deposited data

How the results depend on the processing

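Of 48 alternative counts of marked members, 44 stayed within 1.5 times the main count, those with each replicate left out included. The 4 exceptions came from requiring 50% of the window, which left 25 members, 5 alpha, 9 beta and 11 gamma. The covered share of the span, in the order alpha, beta, gamma, was 18.39%, 23.03% and 44.51% in both replicates. It was 19.78%, 24.38% and 47.77% with relaxed lists, 24.9%, 31.97% and 55.1% with the first run's replicated list, 25.27%, 30.96% and 56.09% with that of the second, and 24.46%, 31.31% and 56.01% with both libraries together. Leaving out 1 replicate gave 20.4% to 21.32%, 25.73% to 26.58% and 47.68% to 51.4%. The median covered share of the variable exon was 85.4%, 60.69% and 94.42%. It was 82.03%, 57.22% and 89.82% with relaxed lists, and the first run's replicated list gave 69.86% in beta and 98.51% in gamma. It was 94.72%, 70.63% and 98.81% with that of the second, and 92.08%, 70.05% and 98.81% with both libraries together. Leaving out 1 replicate gave 86.8% to 89.58%, 63.71% to 63.98% and 96.46% to 98.74%. The median widest peak was 1778 bp, 2296 bp and 2583 bp. It was 989 bp in alpha and 1722 bp in beta with relaxed lists, and 4652 bp, 3602 bp and 9374 bp with peaks joined within 1 kb, which put beta below alpha. Shares rise by construction where 1 replicate is left out. The cause of the other shifts was not tested. No paired analysis was possible because there is 1 group. Unknown depth limits every absent peak, and a peak shows enrichment in a population of cells, not in each cell.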
